A study of Drosophila melanogaster with 3 samples.

Results

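The genes described here encode the aminoacyl-tRNA synthetases of Drosophila melanogaster, the enzymes that load each amino acid onto its transfer RNA before translation. They were chosen by name, as protein-coding genes of the dm6 annotation whose symbol is a three-letter amino acid code followed by RS or RS-m, plus GluProRS. There were 33 of them among 13945 protein-coding genes, 18 called cytosolic (no suffix) and 15 called mitochondrial (suffix -m). The class was taken from the symbol alone, and whether a gene without the suffix also serves mitochondria was not examined. GlnRS, GlyRS, HisRS, LysRS and ThrRS had no -m gene under the same amino acid code. Binding of the transcription factor Xbp1 was measured by ChIP-seq in whole embryos of both sexes, 0 to 24 h old, in 3 biological replicates of 1 group. The embryos came from a single transgenic line that stably expresses Xbp1 fused at its C terminus to green fluorescent protein (GFP), and an anti-GFP antibody was used on chromatin sonicated to 200 to 800 bp. No second condition was among the samples, and whole embryos mix all cell types, which cannot be told apart. The control sample and read totals were not analysed here, so depth is unknown, and nonspecific signal at promoters was not tested for.

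Xbp1, a transcription factor with a basic leucine zipper (bZIP), acts when unfolded proteins build up in the endoplasmic reticulum, where the sensor Ire1 triggers splicing of the Xbp1 mRNA to its active form. Cytosolic synthetases supply charged tRNA to ribosomes in the cytoplasm, including those on the endoplasmic reticulum. Mitochondrial synthetases are made from separate nuclear genes for many amino acids and are imported to serve the ribosomes of the organelle. In mammals, several cytosolic synthetase genes are targets of ATF4, a bZIP factor of the related integrated stress response. A gene is called bound here where at least 1 of its annotated start sites lay no more than 500 bp from the summit of a peak in the authors' thresholded list. That list was filtered by the irreproducible discovery rate (IDR), a measure of how well peak ranks repeat between replicates. Its 7291 peaks were also the 7291 strongest entries of the pooled list. A bound gene is thus one above a cutoff of pooled signal, and need not have a strong peak in every replicate. Signal is the authors' value for each peak, of unstated scale, called on the pooled replicates, and is compared only within a list.

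Cytosolic synthetase promoters were bound more often than mitochondrial ones, and the strongest peaks of the family were all cytosolic. Of the 18 cytosolic genes 12 were bound (66.7%, exact 95% interval over genes 41.0 to 86.7%). Of the 15 mitochondrial genes 5 were bound (33.3%, interval over genes 11.8 to 61.6%), against 30.4% of all protein-coding genes. The mitochondrial share was thus near that of the genome. The strongest peaks lay at IleRS, SerRS, GluProRS and ThrRS, with signals from 1010.0 to 1452, whereas the 5 mitochondrial peaks had signals from 248 to 313.

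The sequences under the summits of the strongest members are shown here because they carry the tallest peaks of the family, and that of ArgRS-m as an example of a mitochondrial member, a choice made after its value was seen. Each is the 101 bp window centred on the summit, less any annotated UTR, read 5′ to 3′ on the strand of the synthetase gene from the Release 6 genome (dm6). Capitals mark GACGTG, part of the element bound by mammalian XBP1. The summit of SerRS lay in its own 5′ UTR, so its sequence is not shown.
IleRS, chr3L:22288450-22288550, plus strand: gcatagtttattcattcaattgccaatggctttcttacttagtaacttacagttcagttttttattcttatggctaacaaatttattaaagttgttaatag
GluProRS, chr3R:23958568-23958650, minus strand: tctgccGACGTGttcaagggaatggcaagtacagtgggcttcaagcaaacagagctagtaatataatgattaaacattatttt
ThrRS, chr2L:12103544-12103644, plus strand: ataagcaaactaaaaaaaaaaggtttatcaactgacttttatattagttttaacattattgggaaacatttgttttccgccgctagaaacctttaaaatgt
ArgRS-m, chr3R:7886864-7886964, plus strand: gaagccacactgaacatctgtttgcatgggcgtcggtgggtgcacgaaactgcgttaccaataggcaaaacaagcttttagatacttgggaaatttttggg

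Of the bZIP sequences searched, a match was found in the window of GluProRS and in no other of the 17. The 8-base UPR element TGACGTGG was in the 101 bp window of 0 of the 17 bound synthetase genes, and of 0.690% of the 3478 promoter peaks of the whole list. Its inner part GACGTG was found at GluProRS alone, at -253 bp from its start site, against 3.28% of all promoter windows. The start of AP-1sigma, on the opposite strand, lies 260 bp from that of GluProRS, so this match is nearer to AP-1sigma. The core ACGT, which GACGTG and TGACGTGG contain, was likewise found only at GluProRS, against 20.6% of all promoter windows. None of the 17 windows held TGATGCAA, an element bound by mammalian ATF4 (0.144% of all promoter windows), the DNA replication-related element TATCGATA (5.43%) or the E-box CACGTG (1.27%), which also contains ACGT. All motifs were searched on both strands, and a window without these letters says nothing of the factor. The windows of IleRS and ThrRS each had 26.7% GC, that of SerRS 24.8% and that of GluProRS 41.6%, and the median over all promoter peaks was 36.6%. Among mitochondrial members the range was 19.8% at CysRS-m and ProRS-m to 46.5% at ArgRS-m and LeuRS-m.

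Signals of the bound cytosolic genes formed a graded series from 1452 down to 208. IleRS (FBgn0027086, isoleucine) had a signal of 1452, rank 273 of the 7291 thresholded peaks, and ranked 293, 269 and 259 in the lists of replicates 1, 2 and 3. SerRS (FBgn0031497, serine) had 1392, rank 296, and ranked 238, 525 and 246 in the replicates. Both were high in every replicate, with SerRS lower in replicate 2 than in the others. GluProRS (FBgn0005674), a single fused enzyme that charges glutamate and proline, had 1284, rank 347, and ranked 339, 377 and 396. ThrRS (FBgn0027081, threonine) had 1010.0, rank 572, and ranked 551, 644 and 563. These were the 4 members in the strongest 10% of the list: 4 of the 12 bound cytosolic genes (33.3%), 0 of the 5 bound mitochondrial genes and 16.4% of the other 4225 bound genes.

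**Figure D1:**
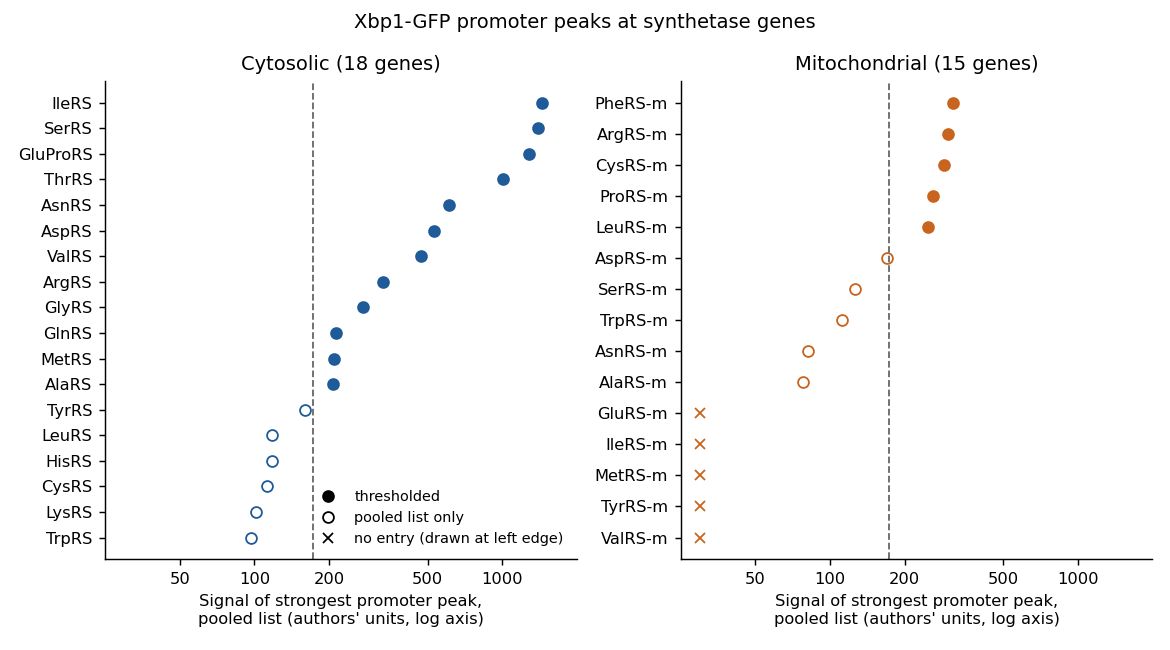
Signal of the strongest promoter peak of each synthetase gene in the authors' pooled list (horizontal log axis), cytosolic genes in the left panel and mitochondrial genes in the right. Filled points are thresholded peaks, open points are entries of the pooled list only, crosses are genes with no entry, and the dashed line is the lowest thresholded signal (172); cytosolic peaks reach 1452 and mitochondrial ones 313.

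Lower in the series, AsnRS (FBgn0086443, asparagine) had a signal of 612 and ranked 1369, 1967 and 1395 in replicates 1, 2 and 3, with a second, weaker peak of 183 upstream. AspRS (FBgn0002069, aspartate) had 533 and ranked 1554, 2468 and 1623, with a second peak of 236. ValRS (FBgn0027079, valine) had 470 and ranked 2196, 2315 and 2754. AspRS was lower in replicate 2 than in the others, as was AsnRS. ArgRS (FBgn0027093, arginine) had 329 and ranked 4799, 3555 and 3066, near the median of 354 over promoter peaks. GlyRS (glycine) had 275, and GlnRS (glutamine), MetRS (methionine) and AlaRS (alanine) had 213, 210.4 and 208, close to the lowest signal of the thresholded list, 172.

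Of the bound members, GlnRS and GlyRS had the widest spread of ranks between replicates. GlnRS ranked 4104 in replicate 2 and 7231 in replicate 1, but 19221 of 23357 in replicate 3, where its q-value was 0.820. GlyRS ranked 3731 and 3696 in replicates 1 and 3 and 8340 in replicate 2. MetRS ranked 5461, 6901 and 6488, and AlaRS 4401, 6335 and 6589. Of the 12 bound cytosolic genes, 10 were within the 7291 strongest peaks of all 3 replicates, GlnRS and GlyRS being the exceptions. The same share over all bound genes is not given here, so this count is not a trait of the family.

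The 5 bound mitochondrial genes had peaks of similar, modest height. PheRS-m (FBgn0275436, phenylalanine) had a signal of 313 and ranked 4028, 4125 and 6748 in replicates 1, 2 and 3. ArgRS-m (FBgn0037526) had 301 and ranked 2961, 6372 and 3334. CysRS-m (FBgn0033900, cysteine) had 288 and ranked 4734, 4478 and 3840. The best rank of any of the 5 in a replicate was 2961, that of ArgRS-m in replicate 1. ProRS-m (FBgn0027082, proline) had 260.4 and ranked 4392, 6214 and 4063, and LeuRS-m (FBgn0027085, leucine) had 248 and ranked 5477, 3650 and 7092. All 5 were within the 7291 strongest peaks of each of the 3 replicates, a count again without the share over all bound genes. None reached the median promoter signal of 354. That median was exceeded by 7 of the 12 bound cytosolic genes (58.3%), near the 55.8% of the other 4225 bound genes.

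**Figure D2:**
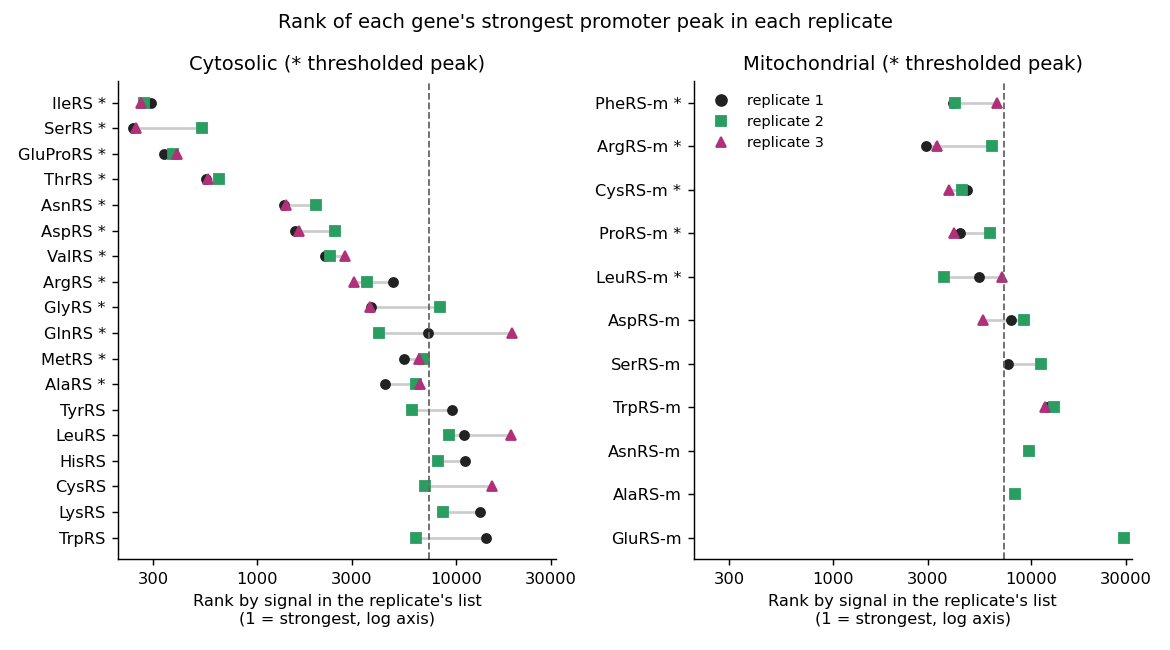
Rank of the strongest promoter peak of each synthetase gene in the list of each replicate (horizontal log axis, 1 is the strongest; points by replicate, grey line joins them), cytosolic genes left and mitochondrial genes right, with an asterisk for a thresholded peak. The dashed line is rank 7291; IleRS, SerRS, GluProRS and ThrRS lie between 238 and 644 in every replicate, GlnRS spans 4104 to 19221, and a gene absent from a list has no point there (the 4 mitochondrial genes absent from all lists are not drawn).

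Of the genes with no thresholded promoter peak, 6 were cytosolic and 10 mitochondrial. The 6 cytosolic genes, CysRS, HisRS, LeuRS, LysRS, TrpRS and TyrRS, each had an entry in the pooled list that includes background, with signals from 97.0 at TrpRS to 160.1 at TyrRS, and for 4 of these the q-value was at most 0.05. Of the 10 mitochondrial genes, 5 had such an entry (AlaRS-m, AsnRS-m, AspRS-m, SerRS-m and TrpRS-m), with signals from 77.5 at AlaRS-m to 171 at AspRS-m, and for 3 the q-value was at most 0.05. With bound genes included, 18 of 18 cytosolic and 10 of 15 mitochondrial genes had a pooled promoter entry, against 53.4% of all protein-coding genes. At a q-value of at most 0.05 these were 16 and 8 genes, against 39.8% of all protein-coding genes. IleRS-m, MetRS-m, TyrRS-m and ValRS-m had no promoter entry in any of the lists, and GluRS-m had one in replicate 2 only, at rank 29325 of 30000. Just outside the list, TyrRS stood at rank 7872 of the pooled list and AspRS-m at 7388; just inside, AlaRS stood at 5989 and MetRS at 5927. Thresholded summits nearest to the unbound genes lay 814 to 8561 bp from cytosolic starts and 2675 to 18090 bp from mitochondrial starts.

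Counting every member, with an unlisted gene placed below all listed ones, the median signal was 244 for the 18 cytosolic genes and 112 for the 15 mitochondrial genes in the pooled list. The median rank was 4600 for cytosolic and 12021 for mitochondrial genes in replicate 1, and 5048.5 against 9720 in replicate 2. In replicate 3 the cytosolic median rank was 5092, and the mitochondrial one could not be given because 8 of those 15 genes had no entry. The cytosolic median thus stood above the mitochondrial one in each replicate, though single genes, such as LeuRS beside LeuRS-m, went the other way.

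Taking from each replicate its 7291 strongest peaks, 12, 14 and 11 of the 18 cytosolic genes had a promoter peak in replicates 1, 2 and 3, against 5, 5 and 6 of the 15 mitochondrial genes. All protein-coding genes had one in 29.6%, 32.8% and 28% of cases. The mean share was 68.5% ± 8.49 for cytosolic and 35.6% ± 3.85 for mitochondrial genes (SD, n = 3 replicates each). The difference was 33.3, 44.4 and 21.1 percentage points, a mean of 33.0 ± 11.7 (SD, n = 3), and cytosolic genes had the higher share in 3 of 3 replicates. With 3 replicates of 1 group an exact two-sided sign-flip test cannot go below p = 0.25, so none was run. The direction was the same under each alternative tried, but the size was not: the gap was 16.7 points with a promoter distance of 200 bp.

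**Figure D3:**
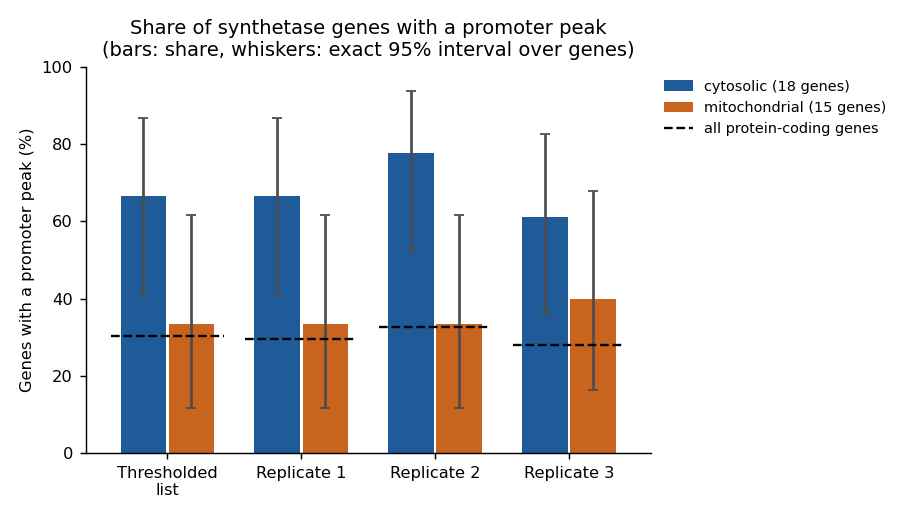
Share of cytosolic (left bar of each pair) and mitochondrial (right bar) synthetase genes with a promoter peak, in the thresholded list and in the 7291 strongest peaks of each replicate, in percent. Whiskers are exact 95% intervals over genes and dashed lines the share of all protein-coding genes (28 to 32.8%); cytosolic shares run from 61.1 to 77.8% and mitochondrial shares from 33.3 to 40.0%.

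Replicate 2 added cytosolic genes that the others lacked. TrpRS (tryptophan) ranked 6319 there and 14120 in replicate 1, with no entry in replicate 3. TyrRS (tyrosine) ranked 5993 in replicate 2 and 9565 in replicate 1, also with no entry in replicate 3. CysRS ranked 6990 in replicate 2, 15192 in replicate 3 and had no entry in replicate 1. AspRS-m was the 1 mitochondrial addition, at rank 5739 in replicate 3 against 7919 and 9222 in replicates 1 and 2. Replicate 2 had the longest list, with 30000 entries.

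For 12 amino acids a cytosolic and a mitochondrial gene share the amino acid code in their symbols, and these were set side by side. Only the cytosolic gene was bound for 7 of them (Ala, Asn, Asp, Ile, Met, Ser and Val), only the mitochondrial one for 2 (Cys and Leu), both for Arg, and neither for Trp and Tyr. IleRS, at 1452, and SerRS, at 1392, had the largest contrasts: IleRS-m had no entry and SerRS-m had a pooled signal of 126, with ranks 7633 and 11234 in replicates 1 and 2 and no entry in replicate 3. AlaRS-m, at a pooled signal of 77.5, and AsnRS-m, at 81.7, were listed in replicate 2 alone, at ranks 8227 and 9720. MetRS-m and ValRS-m, the partners of MetRS and ValRS, had no entry in any list. In the replicates the cytosolic gene alone had a peak among the strongest 7291 for 7, 9 and 6 amino acids, and the mitochondrial gene alone for 2, 1 and 2. The assignments of Ala, Arg, Asn, Ile, Leu, Met, Ser and Val were the same in all 3 replicates. LeuRS ranked 11046, 9276 and 18953 while LeuRS-m was within the strongest 7291 each time, so the order of classes was turned for leucine in each replicate. The fused GluProRS is outside these 12: it was bound, at 1284, as was ProRS-m, at 260.4, and GluRS-m was not. Of the genes outside the 12 pairs, 4 of 6 cytosolic and 2 of 3 mitochondrial ones were bound, an equal share in each class. Of all protein-coding genes 30.4% were bound.

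Peaks lay upstream of the genes, mostly in the gap to a neighbouring start. Of the 17 summits, 16 were upstream of the nearest start site of the synthetase gene and 14 lay between protein-coding genes. The median distance was -165 bp (range -467 to 20) for cytosolic and -120 bp (-154 to -92) for mitochondrial genes, against -115 bp for the other bound genes, of which 89.0% had their summit upstream. Another protein-coding gene had a start within 500 bp of the same summit for 15 of the 17, PheRS-m and AlaRS being the exceptions, against 57.8% of all bound genes. In 8 of the 17 the other start was the nearer one.

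The neighbours were of varied kinds. The IleRS summit lay at -165 bp from the start of IleRS and at -305 bp from that of Hem, a subunit of the complex that drives branched actin assembly. That of SerRS lay 20 bp downstream of the start of SerRS and at -28 bp from that of CG17260. At GluProRS the summit was at -227 bp, but at -33 bp from the start of AP-1sigma, a subunit of a clathrin adaptor of Golgi and endosome traffic. Other pairs were AsnRS with DCTN6-p27, a dynactin subunit, GlnRS with RIOK2, a kinase of small ribosomal subunit maturation, CysRS-m with O-fut1, an O-fucosyltransferase of the endoplasmic reticulum, and LeuRS-m with Dhc64C, the dynein heavy chain. The ValRS summit was at -467 bp from ValRS and at -46 bp from Kdm4B, a histone demethylase. Where each peak was counted only for the nearest start, 7 of 18 cytosolic and 2 of 15 mitochondrial genes were bound (38.9% and 13.3%), against 22.8% of all protein-coding genes. The mitochondrial share then rested on 2 genes, and whether it differed from that of the genome was not tested.

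**Figure D4:**
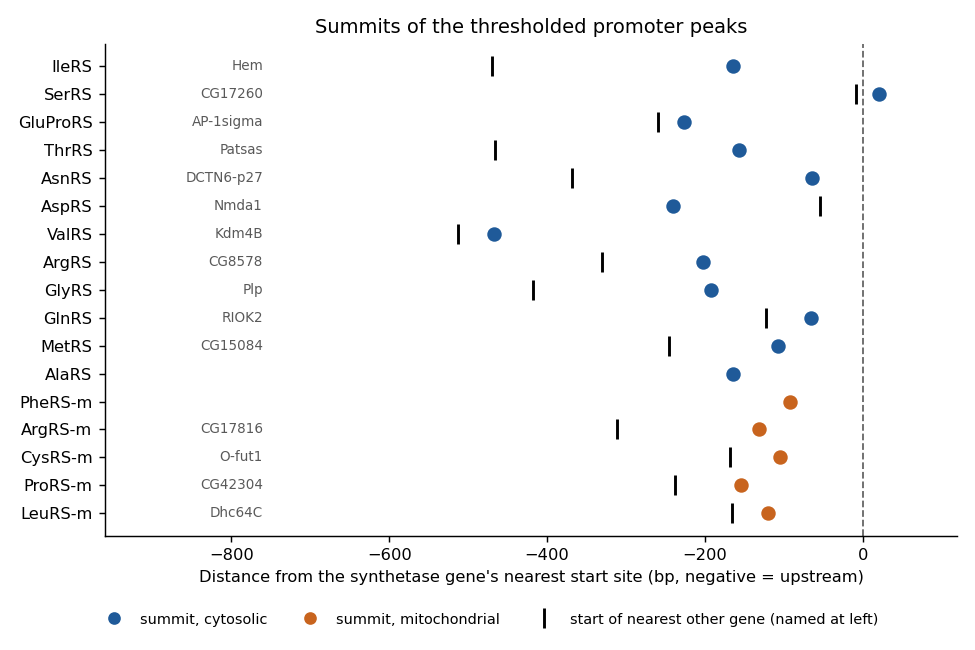
Summit of each bound synthetase gene's thresholded promoter peak (points, by class) and the start site of the nearest other protein-coding gene sharing it (black ticks, named at left), in bp from the nearest start of the synthetase gene; negative is upstream. Of 17 summits 16 are upstream, and in 8 the other start is nearer.

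Gene arrangement moved with the class. A neighbouring start within 500 bp was present for 15 of the 18 cytosolic genes (83.3%) and 7 of the 15 mitochondrial genes (46.7%), against 30.9% of all protein-coding genes. Genes with such a neighbour were bound in 10 of 15 cytosolic and 4 of 7 mitochondrial cases, against 55.2% of all genes with one. Without such a neighbour, 2 of 3 cytosolic and 1 of 8 mitochondrial genes were bound, against 19.3% of all genes without one. ValRS is counted here as bound without a neighbour, but its summit is nearer to the start of Kdm4B (-46 bp) than to its own (-467 bp). The part of this arrangement in the difference between the classes was not tested. The unbound HisRS, LeuRS, LysRS, TrpRS and TyrRS, and AlaRS-m, AsnRS-m and TyrRS-m, also had a neighbouring start within 500 bp.

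Among bound genes alone, the median signal was 501 for the 12 cytosolic and 288 for the 5 mitochondrial genes, a ratio of 1.74; in the replicates, for the same genes, the ratio was 1.99, 1.55 and 1.70 (mean 1.74 ± 0.223, SD, n = 3). The order turned round with a promoter distance of 200 bp, where the medians were 275 for cytosolic and 288 for mitochondrial genes. At that distance GluProRS, ValRS and ArgRS no longer counted and AspRS counted with its weaker peak of 236, at -39 bp. The median over the other 4225 bound genes was 403.

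Other genes of tRNA charging and of elongation were looked at from fixed lists. Outside the naming rule, 6 of the 10 charging genes found in the annotation were bound, against the 30.4% of all genes. They were GatA (signal 946) and GatC (245), subunits of the amidotransferase that makes glutaminyl-tRNA in mitochondria, beta-PheRS (487) and alpha-PheRS (209), the subunits of cytosolic phenylalanyl-tRNA synthetase, AIMP1 (294), a scaffold of the multisynthetase complex, and Slimp (181), a paralog of mitochondrial SerRS. AIMP2, AIMP3, GatB and Dtd were not bound. GatA, a mitochondrial gene, ranked 758, 621 and 616 in replicates 1, 2 and 3, above all mitochondrial synthetase genes. Among elongation factors 4 of 6 cytosolic ones were bound, eEF1gamma (1056), eEF1alpha1 (786), eEF2 (506) and eEF1beta (248), and 2 of 4 mitochondrial ones, mEFTu1 (277) and mEFTu2 (222). eEF1alpha2 and eEF1delta had no promoter entry in any replicate.

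Ribosomal protein genes, matched by symbol pattern, gave the same order of classes. Of 92 cytosolic ones 76 were bound (82.6%), and of 73 mitochondrial ones 44 (60.3%), against 30.4% of all protein-coding genes. Both shares were above that of all genes, whereas the share of mitochondrial synthetase genes, 33.3%, was near it. The gap in replicates 1, 2 and 3 was 22.6, 22.1 and 15.9 percentage points (mean 20.2 ± 3.75, SD, n = 3), beside 33.0 ± 11.7 for the synthetases. Bound mitochondrial synthetase genes reached a signal of 313, whereas bound mitochondrial ribosomal protein genes had a median of 349.9 and reached 5256. Whether the gap differed between the families was not tested.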

How the data were processed

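The deposited dm6 peak lists (1 per replicate, 1 pooled, 1 IDR thresholded) were used as they were. Per the text lists deposited by the authors, a control alignment entered peak calling, and the replicate and pooled lists hold background entries as input for IDR. The aligner and the peak caller were not given in the sources used here. Each peak has a signal and a −log10 q-value, both computed by the authors. All 7291 thresholded peaks had the position and signal of the 7291 strongest pooled entries. Replicates 1, 2 and 3 held 21686, 30000 and 23357 entries. The dm3 lists were not used here.

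Start sites came from all transcripts of protein-coding genes of Ensembl BDGP6.54 (release 115) on the 6 chromosomes of the lists, and sequence from the Release 6 genome. Summits were compared with starts within 500 bp, and the strongest such peak gave a gene's value. Exact intervals are Clopper-Pearson over genes, which treats genes as independent draws, and they do not measure the spread between replicates. No test across genes was run, since genes are not replicates. Assignment was tested on simulated data. Members, lists and alternatives were chosen with earlier results of these data known. Named with values for each list are the 10 bound members of highest signal, all bound mitochondrial members, and amino acids where only 1 class is bound; other members are given by range or where they differ between lists. Tools were Python 3.11.15 with pandas 2.3.3, NumPy 2.4.6, Matplotlib 3.10.9 and SciPy 1.17.1.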

Additional observations from a re-analysis of the deposited data

How the results depend on the processing

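The cytosolic share exceeded the mitochondrial share under every alternative tried; medians of signal turned round under 2, a promoter distance of 200 bp and peaks overlapping the start site. Each of these 2 gave bound shares of 42.4% of all members and 50% of cytosolic ones, a gap of 16.7 points and a cytosolic median signal of 275, while all protein-coding genes were bound in 22.5% (distance) and 19.9% (overlap) of cases. The strongest 3645 thresholded peaks left 24.2% of all, 44.4% of cytosolic and 0 of 15 mitochondrial members bound (a count of 0 allows up to 20.0%), against 18.9% of all protein-coding genes. Counting the nearest start only gave 27.3% of all, 38.9% of cytosolic and 13.3% of mitochondrial members, with median signals of 612 for cytosolic and 306.8 for mitochondrial ones, against 22.8% of all protein-coding genes. Pooled entries up to a q-value of 0.05 gave, in the same order, 72.7%, 88.9% and 53.3%, against 39.8% of all protein-coding genes, and such replicate entries, on average, 65.7%, 77.8% and 51.1%, against 35.0%, 48.4% and 29.6% of all protein-coding genes in replicates 1, 2 and 3. Leaving out 1 replicate gave 45.5 to 48.5% of all, 55.6 to 61.1% of cytosolic and 33.3% of mitochondrial members, with gaps of 22.2 to 27.8 points, against 24.6 to 26.2% of all protein-coding genes. Peaks were not called again without that replicate. The share of all genes was also below the 30.4% of the main setting, so this was a stricter filter. With a distance of 1000 bp or the outermost start of each gene, values moved by less than the spread between replicates. Restricting to amino acids with a gene of each class, chosen after seeing the data, gave a gap of 41.7 points. Among the few genes outside these pairs the classes had equal shares, 4 of 6 cytosolic and 2 of 3 mitochondrial. The causes of these shifts were not tested. No paired analysis was possible because the samples form 1 group, so no samples could be paired across groups; the gap between classes was taken within each replicate. Depth is unknown, and its limit on weak peaks cannot be given.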

Other observations

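Several cytosolic synthetases join in a multisynthetase complex known from mammals, which holds the enzymes for glutamate and proline (fused), isoleucine, leucine, methionine, glutamine, lysine, arginine and aspartate. This split was chosen after the values were seen. Of the 8 genes of the complex 6 were bound, and of the other 10 cytosolic genes 6, against 30.4% of all protein-coding genes. The bound genes of the complex had a median signal of 431, from 210.4 at MetRS to 1452 at IleRS. The others had a median of 541, from 208 at AlaRS to 1392 at SerRS. In the 7291 strongest peaks of replicates 1, 2 and 3, 6, 6 and 5 genes of the complex had a promoter peak, against 6, 8 and 6 of the others. The share over all protein-coding genes was 29.6%, 32.8% and 28%. LeuRS and LysRS were the unbound genes of the complex.

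Some start sites carry an ambiguity of annotation. The annotated start of HisRS coincides with one of Bx, a gene for a LIM-domain protein. The stronger peak of AspRS lay in an intron of AspRS and of Nmda1, at -241 bp from the nearest of the 3 annotated starts of AspRS, and AspRS no longer counted as bound when only the outermost start was used.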
